A study of Mus musculus with 12 samples.

Results

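Chromatin accessibility was examined at 10 genes of fatty acid synthesis: Acly, Acaca, Acacb, Fasn, Scd1, Scd2, Elovl3, Elovl6, Srebf1 and Mlxipl. The genes were chosen by name, and every ATAC-seq peak to which the deposited tables assign one of them was taken. This gave 77 of 58558 peaks in brown fat and 44 of 39558 peaks in inguinal fat, 121 of 98116 in all, with 2 to 16 peaks per gene and tissue. ATAC-seq uses a transposase that inserts into accessible chromatin, and more reads in a peak mean that the site was more open.

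All mice were C57BL/6 and carried floxed alleles of BAF60a (gene symbol Smarcd1), which belongs to the SWI/SNF family of nucleosome remodelers. In AKO mice Adiponectin-Cre deletes BAF60a in adipocytes, and flox mice are flox/flox animals without the recombinase. Whole brown fat came from 3 flox and 3 AKO mice, each frozen on its own, and neither an age nor a housing temperature is given for them in the sources used here. Whole inguinal fat came from cold-acclimated mice aged 6 to 8 months and kept for 7 days at 10 °C, and the pads of 6 mice per genotype were pooled, minced and divided, so that its 3 samples per genotype are aliquots of 1 pool. Adiponectin-Cre acts in adipocytes, and whole fat also holds nuclei of vessels, stroma and immune cells with an intact gene.

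Fatty acid synthesis turns citrate that leaves the mitochondrion into palmitate and its longer and unsaturated products. Acly splits citrate to acetyl-CoA, the carboxylases Acaca and Acacb make malonyl-CoA, and Fasn builds palmitate from both. The desaturases Scd1 and Scd2 insert a double bond, and the elongases Elovl6 and Elovl3 lengthen the chain. Srebf1, which encodes the sterol regulatory element binding protein SREBP-1, and Mlxipl, which encodes the glucose-responsive factor ChREBP, switch these enzymes on with feeding. Brown fat runs this pathway beside fatty acid oxidation, and both are raised by cold.

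Values are normalized reads, meaning reads per peak over a size factor of the sample, as the authors deposited them. AKO was compared with flox by limma on log2(normalized reads + 1) over all peaks of a tissue, p-values were adjusted by Benjamini-Hochberg and called under 0.1, and a fold change on this scale understates differences at peaks with few reads. The brown fat fit includes the first principal component (PC1) as a covariate, as the study did. This component carried 55.6% of the variance. Flox replicate 1, the deepest library, scored lowest at -98.2 and AKO replicate 2, the shallowest, highest at 112, with means of -41.8 in flox and 41.8 in AKO. Genotype and PC1 thus share part of the difference between the brown fat groups, and estimates with genotype alone are also given for some peaks. Libraries held 6336670 to 27500738 reads in peaks in brown fat and 4066720 to 6691161 in inguinal fat.

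The targeted gene was checked first. The brown fat peak centred in intron 4 of Smarcd1, which reaches exon 5, held 136, 201 and 185 in flox against 23.7, 57.9 and 26.9 in AKO mice, while the peak over its start site held 485, 456 and 369 in flox against 412, 417 and 497 in AKO. The intron 4 peak had a log2 fold change of -2.98 ± 0.27 (SE), with an adjusted p of 0.269 in limma and 4.05e-11 in DESeq2. The inguinal table assigns Smarcd1 a peak at the start site only, with 249, 188 and 211 in flox against 233, 229 and 229.9 in AKO, and no inguinal peak in its introns was there to check the labels. Summed over the peaks of 6 adipocyte marker genes, brown fat held 19560 to 21170 normalized reads in flox and 13390 to 18240 in AKO, and over 6 brown or beige marker genes 18030 to 22570 and 12190 to 14030. Neither list's groups overlapped, while those of the macrophage, endothelial, fibroblast, lymphocyte, muscle and epithelial lists did. The part of these markers in the results was not tested, and fewer adipocyte nuclei and less open chromatin per nucleus cannot be told apart in whole tissue. In inguinal fat the adipocyte list held 2736 to 3513 in flox and 2821 to 3089 in AKO, and the brown or beige list 1260 to 1511 and 1359 to 1481, both with overlap. Without overlap were the endothelial list, at 766 to 855 in flox and 671 to 740 in AKO, and the 1 lymphocyte marker of 6 that had a peak, at 60.04 to 74.9 and 75.9 to 92.2.

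No peak of either tissue passed the adjusted threshold in limma, so none of the 121 peaks did (0% of all peaks called in each direction and tissue). The smallest adjusted p over all brown fat peaks was 0.269, that of the Smarcd1 intron 4 peak. Limma thus did not call even the targeted gene in brown fat, and its count of 0 does not show a lack of difference. At an unadjusted p under 0.05, the 77 brown fat peaks held 0 lower and 2 higher in AKO, where 5.59% of all brown fat peaks were lower and 3.46% higher. The 44 inguinal peaks held 4 lower and 9 higher, where 7.42% and 7.61% of all inguinal peaks were. These small counts moved with single samples. In brown fat the lower count was 7 without flox replicate 3, 3 without flox replicate 2 and 1 without flox replicate 1, AKO replicate 1 or AKO replicate 2, and the higher count was 1 without those last 3 mice in turn and 4 without AKO replicate 3. In inguinal fat the lower count was 1 without flox replicate 1 and 2 without AKO replicate 2 or 3, and the higher count was 4 without flox replicate 2. On the recovered read counts DESeq2 called 0 of the brown fat peaks, and 1 inguinal peak lower and 0 higher. It left some peaks without an adjusted p. Of the 42663 brown fat peaks with one it called 0.298% lower and 0.11% higher, and of the 35723 inguinal peaks 0.63% and 0.546%. edgeR called 0 in brown fat (0.114% of all peaks lower and 0.029% higher), and 3 lower and 3 higher in inguinal fat (2.52% and 2.15%). Limma with a mean-variance trend called 0 in brown fat (0.0751% and 0.0154%), and 3 lower and 3 higher in inguinal fat (2% and 1.64%).

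In the main fits, with PC1 in brown fat, the 10 genes as a whole stood near the middle of all peaks. The median log2 fold change was 0.02 over the 77 brown fat peaks, with 36 below 0, beside a median of 0.01 and 49.1% below 0 over all brown fat peaks. It was 0.003 over the 44 inguinal peaks, with 22 below 0, beside 50.1% over all. With genotype alone, the brown fat peaks of the 10 genes lay lower than all peaks. Their median was -0.18 with 55 of 77 below 0, beside -0.01 and 51.7% below 0 over all peaks. Elovl6, with 16 of 16 below 0, and Acacb, with 11 of 11, held many of these peaks. Without Elovl6 the median was -0.09, with 39 of 61 below 0. The shift was not particular to the 10 genes, as 176 peaks of other pathway genes had a median of -0.11, with 113 below 0. The medians of the 10 genes cover genes that pointed in opposite directions, as the plot of all peaks by gene shows.

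**Figure D1:**
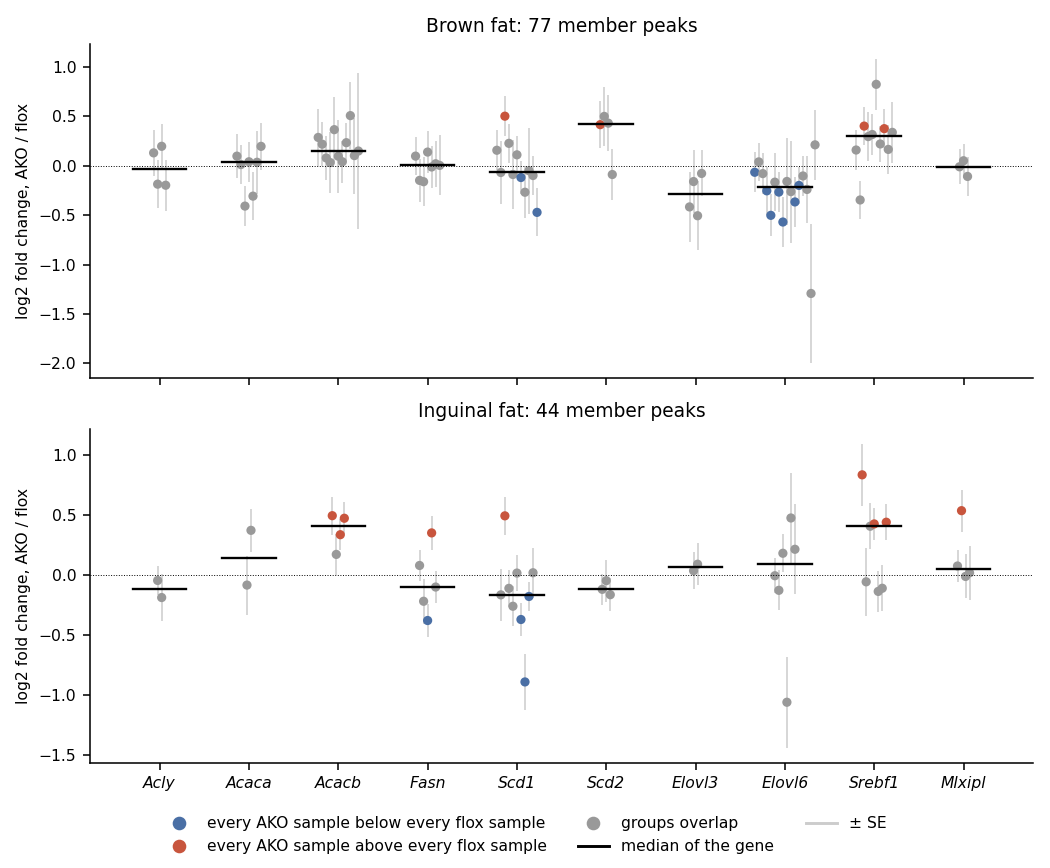
Fitted log2 fold change of AKO over flox for each of the 77 brown fat and 44 inguinal peaks, grouped by gene and ordered within a gene by distance from the start site. Bars are ± SE, black lines are gene medians, and colours mark peaks whose samples do not overlap between genotypes: 9 below and 4 above in brown fat, 4 below and 9 above in inguinal fat.

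Peaks whose flox and AKO samples did not overlap at all were counted next. In brown fat AKO lay below flox at 9 of the 77 peaks (11.7%) and above at 4 (5.19%), against 8.84% and 8.77% of all brown fat peaks. Of the 9 peaks, 7 belonged to Elovl6. The other 61 peaks held 2 below (3.28%) and 4 above (6.56%). In inguinal fat AKO lay below flox at 4 of 44 peaks (9.09%) and above at 9 (20.5%), against 10.3% and 10.6% of all inguinal peaks, and the 9 were spread over Acacb, Srebf1, Fasn, Mlxipl and Scd1. Fewer samples leave more peaks without overlap, and the brown fat count below was 22 of 77 without AKO replicate 1 (15.3% of all peaks), 20 without flox replicate 3 (16.9%) and 15 without flox replicate 2 (12.3%), while the counts above then were 7, 8 and 7 (15.1%, 19.8% and 12.4%), and they were also 7 without AKO replicate 2 (11.4%). In inguinal fat the count below was 8 without flox replicate 1 (14.2%), 8 without AKO replicate 3 (15.7%) and 7 without flox replicate 2 (18.2%).

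In brown fat the gene with the most peaks free of overlap was Elovl6, the elongase that takes palmitate to stearate. All 16 of its peaks had a lower mean in AKO than in flox, with a median log2 ratio of group means of -0.46, and at 7 of them (43.8%) the groups did not overlap. Summed over the 16 peaks, the gene held 5444, 3911 and 3639 normalized reads in flox and 3301, 2563 and 2791 in AKO. The lowest flox mouse thus lay above the highest AKO mouse. With each mouse left out in turn, 7 to 13 of the 16 peaks had AKO wholly below flox and 0 wholly above, beside 12.3% to 16.9% of all peaks wholly below. The count of 13 came without flox replicate 3, and a smaller group makes overlap rarer by itself.

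The Elovl6 peak with the largest difference in normalized reads lay in intron 2, 59.9 kb past the start site (chr3:129591300-129593358), and held 1139.6, 738 and 814 in flox against 612, 464 and 437 in AKO. A peak in the same intron at 34.1 kb held 478, 491 and 371 in flox against 277, 311 and 303 in AKO and had the smallest p of the gene. At both peaks every AKO mouse lay below every flox mouse, with a gap smaller than the spread among the flox mice. The first had a log2 fold change of -0.57 ± 0.26 with an adjusted p of 0.569 in limma, and the second -0.50 ± 0.21 and 0.553. With genotype alone, the 59.9 kb peak stood at -0.82 and was the 1 of the 77 peaks that DESeq2 then called, with an adjusted p of 0.0285 (0.517% of all peaks called lower and 0.512% higher in that fit), whereas the adjusted p of edgeR without PC1 was 0.246.

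The central 300 bases of this intron 2 peak are shown because it carries the largest count difference of the gene. They span chr3:129592180-129592479 of the mm10 genome (GRCm38), plus strand, with the 1 match to the NF-Y letters CCAAT in capitals.

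Elovl6 intron 2 peak: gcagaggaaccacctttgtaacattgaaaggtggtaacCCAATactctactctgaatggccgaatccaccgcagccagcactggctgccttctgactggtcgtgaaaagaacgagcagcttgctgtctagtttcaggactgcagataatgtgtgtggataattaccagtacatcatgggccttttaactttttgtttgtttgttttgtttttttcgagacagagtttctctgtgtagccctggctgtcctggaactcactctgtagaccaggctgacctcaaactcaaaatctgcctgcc

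The Elovl6 start-site peak reached from upstream of exon 1 into intron 2 and held 1217, 845 and 764 in flox against 761, 643 and 724 in AKO. The groups did not overlap there either, yet the fitted log2 fold change was only -0.07 ± 0.20, against -0.38 with genotype alone. Over all 16 peaks the median fitted value was -0.22, with 14 below 0, and that with genotype alone -0.42. The flox mouse highest at most Elovl6 peaks, replicate 1, was also the deepest library. The part of depth and of the adipocyte markers in these differences was not tested.

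**Figure D2:**
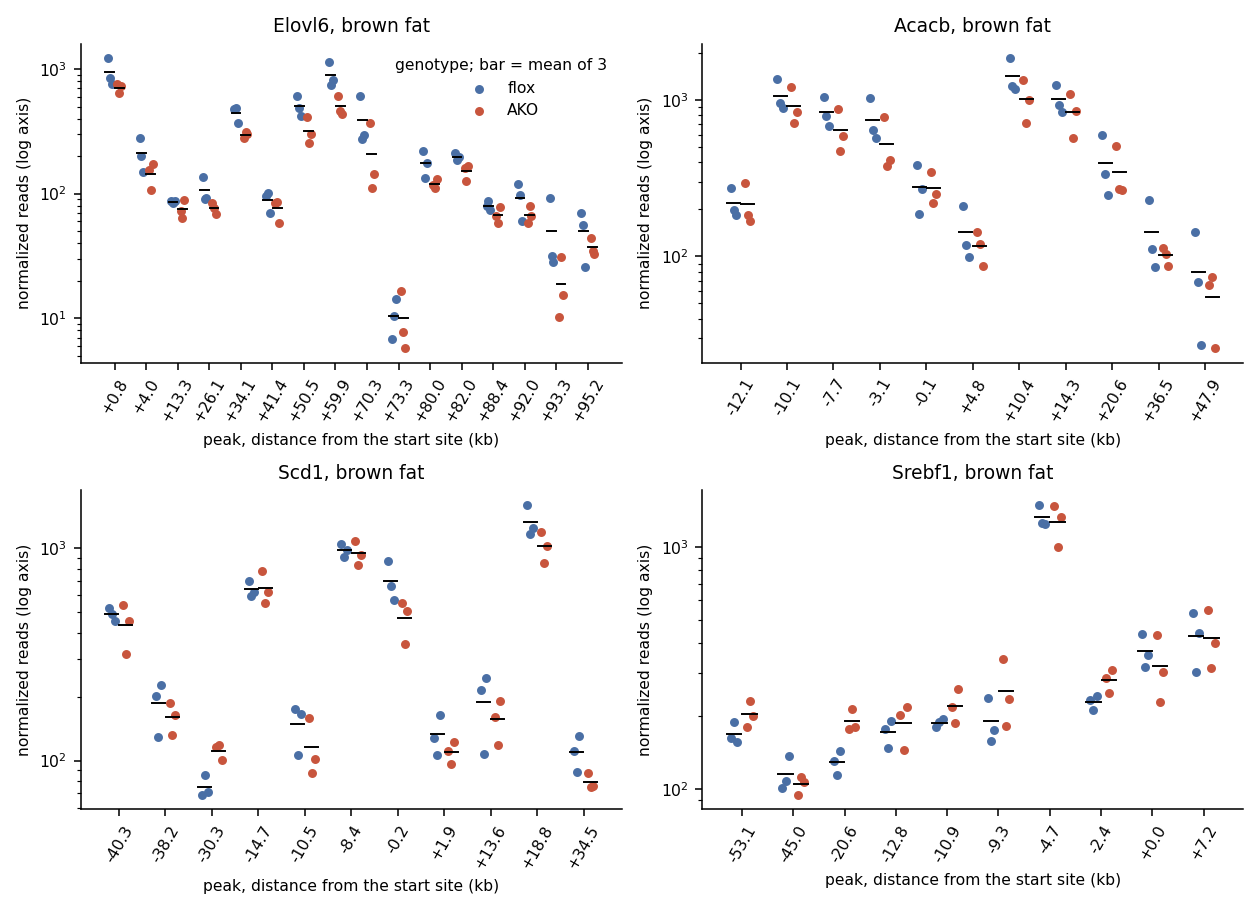
Normalized reads (log axis) in each of the 3 flox and 3 AKO brown fat mice at every peak of Elovl6, Acacb, Scd1 and Srebf1, placed in order of distance from the start site in kb. Bars are means of 3 mice. At Elovl6 the AKO mean lies below the flox mean at all 16 peaks, while at Srebf1 6 of 10 AKO means lie above.

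Elovl3, an elongase of very long chains that marks cold-stimulated brown fat, gave little separation. Its start-site peak held 99.3, 119.7 and 77.6 in flox against 55.7, 108 and 79.6 in AKO, with a log2 fold change of -0.51 ± 0.35 and an adjusted p of 0.7. The peak 4.5 kb past the start, which reaches exon 4 and is centred in Pitx3, held 478, 582 and 463 in flox against 458, 676 and 525 in AKO. The genotypes overlapped at all 4 peaks, and all 4 fitted values were below 0, while with genotype alone the 4.5 kb peak stood at 0.11.

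Acacb encodes the acetyl-CoA carboxylase of the mitochondrial surface, whose malonyl-CoA restrains fatty acid oxidation. Its 11 brown fat peaks all had lower means in AKO, with a median log2 ratio of -0.29, but the genotypes overlapped at every peak. Without AKO replicate 1, AKO lay wholly below flox at 5 of the 11, where 15.3% of all peaks did, and without each other mouse at 0. The peak 10.4 kb downstream of the start site, in intron 2, held 1842, 1233 and 1176 in flox against 1338, 707 and 1004 in AKO. With PC1 in the fit all 11 values were above 0, with a median of 0.15, while with genotype alone all 11 were below 0, with a median of -0.30. With PC1, the number below 0 was 2 under scaling by total reads in peaks, 9 (median -0.17) with a replicate block, 6 (median -0.003) without AKO replicate 1, 4 without flox replicate 2 and 3 without flox replicate 3. The peak over the start site the table uses held 382, 186 and 269 in flox against 347, 220.2 and 249 in AKO, and the smallest p of the gene fell in intron 3 at 20.6 kb, with 598, 336 and 247 in flox against 507, 268 and 266 in AKO. The direction for Acacb in brown fat thus turned with the covariate, the block and single mice, and the smallest adjusted p with PC1 was 0.692.

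**Figure D3:**
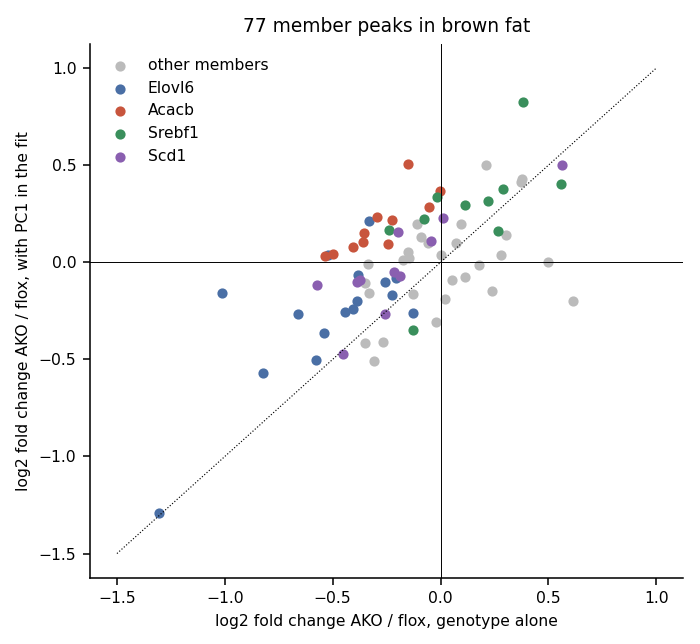
Log2 fold change of AKO over flox at the 77 brown fat peaks from limma with genotype alone (horizontal axis) and with PC1 as a covariate (vertical axis), with the line of equal values dotted. All 11 Acacb peaks are below 0 on the horizontal axis and above 0 on the vertical one, and 14 of 16 Elovl6 peaks stay below 0 on both.

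At Acaca, Acly and Fasn too the brown fat genotypes overlapped at each peak, 18 in all. Acaca, the cytosolic carboxylase, had 7 peaks with a median of 0.04. Its smallest p fell at intron 5, 23.8 kb past the start, with 117, 131 and 114 in flox against 86.6, 118 and 97.9 in AKO and an adjusted p of 0.602. The Acaca peak nearest the start site used by the table, in intron 3, held 449, 406 and 439.8 in flox against 445, 317 and 394 in AKO. Acly, the citrate-splitting enzyme, held 1063, 893 and 1066 in flox against 994, 734 and 1152 in AKO over its start site and had its smallest p in intron 6, with 199, 251 and 216 in flox against 244, 201 and 268 in AKO and an adjusted p of 0.815. At Fasn the start-site peak held 1167, 1037 and 1184 in flox against 1006, 831 and 1265 in AKO, a log2 fold change of 0.02 ± 0.23, and of -0.15 with genotype alone. The smallest p of Fasn fell 33.0 kb upstream, within Ccdc57, with 254, 287 and 402 in flox against 286, 427 and 397 in AKO and an adjusted p of 0.864.

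Scd1 encodes the main stearoyl-CoA desaturase of adipocytes, and its start-site peak was among the peaks without overlap in both tissues. In brown fat it held 864, 665 and 568 in flox against 552, 353 and 507 in AKO, a log2 ratio of means of -0.57. The fitted value was -0.12 ± 0.17, and -0.57 with genotype alone. The gap between the lowest flox mouse and the highest AKO mouse was small. A peak 34.5 kb downstream of the start was also lower in every AKO mouse, with 111, 88.7 and 131 in flox against 87.6, 75.3 and 75.8 in AKO, and a peak 30.3 kb upstream was higher in every AKO mouse, with 68.97, 85.7 and 71.1 in flox against 115, 118 and 101 in AKO. The upstream peak had a log2 fold change of 0.50 ± 0.20 and an adjusted p of 0.541 in limma, the smallest of the 11 Scd1 peaks.

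The central 300 bases of the brown fat start-site peak of Scd1 are shown because the start-site peak separated the genotypes in both tissues. Reads were counted over the whole peak and not in these bases alone. They span chr19:44407763-44408062 on chromosome 19, lie upstream of the start site, and are printed on the plus strand, although Scd1 runs on the minus strand, with 2 matches to CCAAT on the reverse strand in capitals.

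Scd1 start-site peak: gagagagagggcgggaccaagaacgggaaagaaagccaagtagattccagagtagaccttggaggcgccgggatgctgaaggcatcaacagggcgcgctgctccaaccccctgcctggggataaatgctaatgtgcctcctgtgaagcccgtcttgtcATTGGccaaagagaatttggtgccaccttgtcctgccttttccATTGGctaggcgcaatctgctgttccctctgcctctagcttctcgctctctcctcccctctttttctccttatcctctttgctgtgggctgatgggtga

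Scd2, a stearoyl-CoA desaturase known best from brain, had no brown fat peak whose AKO mean lay below the flox mean. At the peak 26.5 kb upstream flox mice averaged 149.6 ± 14.9 (SD, n = 3) and AKO mice 195 ± 36.9, without overlap, and the peak in exon 1 held 57.5, 65.8 and 45.3 in flox against 57.7, 75.3 and 87.3 in AKO. The adjusted p was 0.646 at the first and 0.686 at the second. The 4 Scd2 peaks had a median fitted value of 0.42.

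Of the 2 regulators, Srebf1 had fitted values above 0 with PC1 at 9 of 10 brown fat peaks, with a median of 0.31. With genotype alone 4 of the 10 were below 0 and the median was 0.17. The peak 20.6 kb upstream, within Tom1l2, held 131, 115 and 144 in flox against 177, 214 and 181 in AKO, and the peak 2.4 kb upstream held 234, 211 and 243 in flox against 287, 249 and 309 in AKO. Neither overlapped between genotypes. The smallest p of the 77 peaks belonged to the peak 9.3 kb upstream, also within Tom1l2, with 238, 157 and 176 in flox against 343, 182 and 235 in AKO. Its log2 fold change was 0.82 ± 0.26 with an adjusted p of 0.482, although the samples overlapped, and the value with genotype alone was 0.38. At the Srebf1 start site the values were 436, 318 and 357 in flox against 434, 228 and 305 in AKO. They overlapped, and the fitted value of 0.17 ± 0.25 stood against -0.24 with genotype alone.

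A wide Srebf1 peak 4.7 kb upstream (chr11:60224445-60226198) held 1486, 1250.3 and 1244 in flox against 1478, 1000.5 and 1329 in AKO. Its central 300 bases are shown because they hold 2 matches to the sterol regulatory element letters TCACNCCA, the kind of element that SREBP-1 reads, and because an inguinal peak within this brown fat peak, just beside these bases, was higher in every AKO aliquot. They span chr11:60225172-60225471 and are printed on the plus strand, while Srebf1 runs on the minus strand, with both matches in capitals.

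Srebf1 upstream peak: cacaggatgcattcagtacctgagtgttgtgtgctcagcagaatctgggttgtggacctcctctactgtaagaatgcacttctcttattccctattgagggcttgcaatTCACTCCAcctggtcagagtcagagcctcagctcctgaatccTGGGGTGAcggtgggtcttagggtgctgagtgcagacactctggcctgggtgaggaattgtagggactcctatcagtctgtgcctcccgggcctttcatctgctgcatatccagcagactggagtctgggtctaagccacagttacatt

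Mlxipl, the other regulator, had 3 brown fat peaks with lower means in AKO and overlap at each. Its wide start-site peak held 2822, 2237 and 2152 in flox against 2194, 1534 and 1999 in AKO, a log2 ratio of means of -0.33 and a fitted value of -0.01 ± 0.18, against -0.34 with genotype alone. The smallest p of the gene fell in intron 2, 11.9 kb past the start, with 205, 188 and 186 in flox against 188, 124 and 149 in AKO and an adjusted p of 0.894.

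In inguinal fat of cold-acclimated mice the peaks without overlap lay mostly at 3 genes. Acacb and Srebf1 held 6 of the 9 peaks at which AKO lay above flox, and Scd1 held 3 of the 4 peaks at which it lay below. Elovl6 had no peak without overlap among 6. P-values here cover the spread between aliquots of 1 pool per genotype and say nothing of the spread between mice.

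In inguinal fat the reads summed over Scd1 were lower in AKO. Over its 9 peaks the gene held 1836, 1572 and 1899 normalized reads in flox and 1502, 1427 and 1395 in AKO, without overlap. Fitted values were below 0 at 6 of the 9 peaks. The peak with the lowest of them, given next, weighs heavily in this sum, so the sum does not describe every peak of the gene. The peak across the 3′ end of the gene, 13.3 kb past the start (chr19:44393800-44395043) and overlapping exon 6, held 379, 279 and 509 in flox against 179.8, 237 and 195 in AKO. All 3 AKO aliquots lay below the lowest flox aliquot, with a log2 fold change of -0.89 ± 0.23. The adjusted p was 0.184 in limma, 0.0874 in DESeq2, 1.63e-07 in edgeR and 7.88e-05 in limma with a mean-variance trend, so that the 3 alternatives called it lower and plain limma did not.

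The Scd1 start-site peak held 369, 379 and 349 in flox against 309, 250.0 and 289.8 in AKO, again without overlap. Its log2 fold change was -0.37 ± 0.14, with an adjusted p of 0.272 in limma, 0.116 in DESeq2 and 0.0357 in edgeR. A peak 18.6 kb past the start held 309, 292 and 307 in flox against 278, 264 and 259.8 in AKO, a narrow but complete separation. Of the Scd1 peaks with fitted values above 0, 1 was higher in every AKO aliquot, 38.2 kb upstream. It held 64.9, 53.4 and 64.6 in flox against 81.8, 76.5 and 101 in AKO, with a log2 fold change of 0.49 ± 0.16.

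Acacb had 4 inguinal peaks, all with higher means in AKO, and 3 without overlap. Summed over the 4, it held 682, 696 and 798 normalized reads in flox and 899, 924 and 943 in AKO. The peak 14.3 kb past the start, in intron 2, held 138, 133 and 149 in flox against 199, 177 and 209 in AKO, and the peak 10.4 kb past it held 316, 357 and 378 in flox against 429, 451 and 442 in AKO. The first had a log2 fold change of 0.47 ± 0.13 and adjusted p-values of 0.195 in limma, 0.123 in DESeq2 and 0.0437 in edgeR. The second had 0.33 ± 0.13, with 0.299, 0.118 and 0.0385.

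The third such Acacb peak lay in intron 1, 10.3 kb upstream of the start site the table uses and downstream of an earlier annotated start, and held 76.3, 67.8 and 89.5 in flox against 122, 108 and 98.4 in AKO. The nearest peak to the start site, 7.7 kb upstream, held 152, 138 and 182 in flox against 149, 187 and 195 in AKO and overlapped. The central 300 bases of the intron 1 peak are shown because they hold a match to a direct repeat of AGGNCA with 1 base between its copies, the form read by PPAR and RXR dimers, which 0.705% of all inguinal peaks had in that window. They span chr5:114155042-114155341 on the plus strand, with the match in capitals.

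Acacb intron 1 peak: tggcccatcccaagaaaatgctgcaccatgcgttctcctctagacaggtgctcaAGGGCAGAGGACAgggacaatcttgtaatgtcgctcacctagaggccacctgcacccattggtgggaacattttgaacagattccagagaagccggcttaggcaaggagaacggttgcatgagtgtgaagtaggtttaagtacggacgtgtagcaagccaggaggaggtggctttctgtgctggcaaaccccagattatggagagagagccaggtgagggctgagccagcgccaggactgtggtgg

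**Figure D4:**
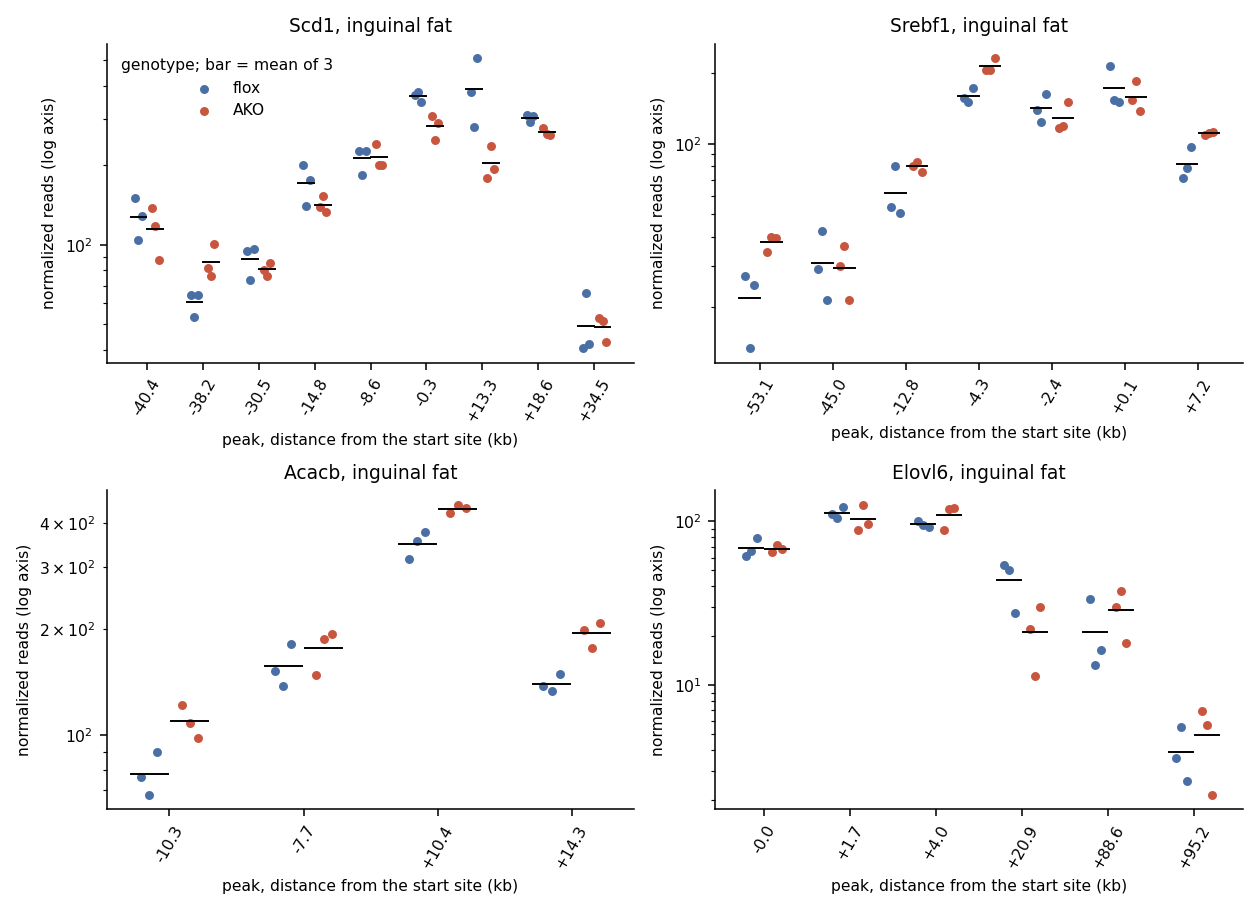
Normalized reads (log axis) in each of the 3 flox and 3 AKO aliquots of pooled inguinal fat at every peak of Scd1, Srebf1, Acacb and Elovl6, in order of distance from the start site in kb. Bars are means of 3 aliquots. AKO lies wholly below flox at 3 Scd1 peaks and wholly above at 3 Acacb and 3 Srebf1 peaks.

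Srebf1 had 7 inguinal peaks, of which 3 were higher in every AKO aliquot and none lower. The peak 4.3 kb upstream held 157, 151 and 173 in flox against 206, 208 and 232 in AKO, the peak in intron 1 held 71.3, 78.9 and 96.4 in flox against 109.5, 111 and 112 in AKO, and the small peak 53.1 kb upstream, within Tom1l2, held 27.1, 13.3 and 24.96 in flox against 34.6, 39.96 and 39.6 in AKO. Their log2 fold changes were 0.42 ± 0.13, 0.44 ± 0.15 and 0.83 ± 0.26. Adjusted p-values in limma were 0.218, 0.247 and 0.218, and edgeR called the first alone, at 0.0601. The start-site peak overlapped between genotypes, with 216, 153 and 151 in flox against 154, 185 and 138 in AKO.

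Mlxipl showed a single higher peak, in intron 1 at 2.8 kb, with 97.7, 67.8 and 77.5 in flox against 105, 130.2 and 115 in AKO and an adjusted p of 0.232. Its start-site peak held 326, 301 and 357 in flox against 347, 365 and 322 in AKO and overlapped. The intron 1 peak is narrow and lies within the wide brown fat start-site peak.

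At Fasn the 2 peaks without overlap pointed in opposite directions. The peak 26.6 kb upstream, within Ccdc57, held 120.5, 107 and 129 in flox against 86.4, 98.2 and 87.7 in AKO, and the peak 6.4 kb upstream held 168, 148 and 164 in flox against 229, 199.8 and 185 in AKO. Their log2 fold changes were -0.38 ± 0.14 and 0.35 ± 0.14, with an adjusted p of 0.265 and 0.31. The Fasn start site held 572, 606 and 666 in flox against 530.2, 573 and 614 in AKO, a log2 fold change of -0.10 ± 0.13.

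A distal Fasn peak 48.9 kb upstream was nearly level between genotypes in both tissues, with 962, 822 and 878 in flox against 847, 747 and 974 in AKO in brown fat and 222, 259 and 246 in flox against 263, 261 and 242 in AKO in inguinal fat. It is shown because its central 300 bases, the same bases in both tables, held matches to the PPAR and RXR direct repeat and to the sterol regulatory element at once. They span chr11:120873260-120873559 on the plus strand, within Ccdc57, with both matches in capitals, the repeat first.

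Fasn distal peak: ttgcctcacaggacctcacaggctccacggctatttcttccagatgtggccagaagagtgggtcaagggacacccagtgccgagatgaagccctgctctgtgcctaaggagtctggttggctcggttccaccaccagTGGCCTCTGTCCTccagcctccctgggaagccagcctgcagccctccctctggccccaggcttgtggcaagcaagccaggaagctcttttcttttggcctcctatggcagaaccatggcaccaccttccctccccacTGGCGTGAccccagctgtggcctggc

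The remaining members overlapped at every inguinal peak. Elovl6 had its smallest p at a small intron 2 peak 20.9 kb past the start, with 54.2, 50.03 and 27.5 in flox against 21.9, 11.4 and 29.9 in AKO. Its log2 fold change was -1.06 ± 0.38, with an adjusted p of 0.261 in limma and 0.0638 in edgeR. The Elovl6 start site held 61.3, 65.6 and 79.2 in flox against 64.5, 71.9 and 67.4 in AKO. Elovl3 held 55.6, 62.3 and 50.8 in flox against 53.02, 53.7 and 66.3 in AKO at its start site and 174, 213 and 164 in flox against 197, 226 and 164 in AKO at the peak centred in Pitx3. Scd2 held 129, 133 and 135 in flox against 106, 118 and 132 in AKO in exon 1. Acly held 589, 626 and 632 in flox against 573, 598 and 615 in AKO over its start site and, at its smallest p, 109, 90.1 and 71.4 in flox against 82.99, 66.2 and 85.5 in AKO in intron 1. Acaca held 73.4, 62.3 and 84.4 in flox against 81.8, 83.3 and 47.05 in AKO nearest its start, in intron 3, and had its smallest p in intron 9, with 39.9, 27.8 and 33.6 in flox against 39.2, 50.2 and 41.7 in AKO and an adjusted p of 0.38.

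The tissues could be set side by side at 43 pairs of overlapping peaks. Of the 77 brown fat peaks 41 (53.2%) overlapped an inguinal peak by at least 1 base, and of the 44 inguinal peaks 43 (97.7%) overlapped a brown fat peak, against 53.8% and 80.5% of all peaks. Elovl6 had most peaks of its own in brown fat, 12 of 16, and Acacb had 7 of 11. Brown fat libraries held 6336670 to 27500738 reads in peaks and inguinal ones 4066720 to 6691161. The part of depth in peaks found only in brown fat was not tested. The tables were normalized separately, so no test was run between tissues. In 1 of the 43 pairs the genotypes were free of overlap in both tissues, the Scd1 start site, and AKO lay below flox in both. Such pairs were not counted over all peaks, so this count is a description only. Within 1 tissue, AKO lay wholly below flox at 8.84% and above at 8.77% of all brown fat peaks. In inguinal fat these shares were 10.3% and 10.6%. No pair separated the genotypes in opposite directions.

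**Figure D5:**
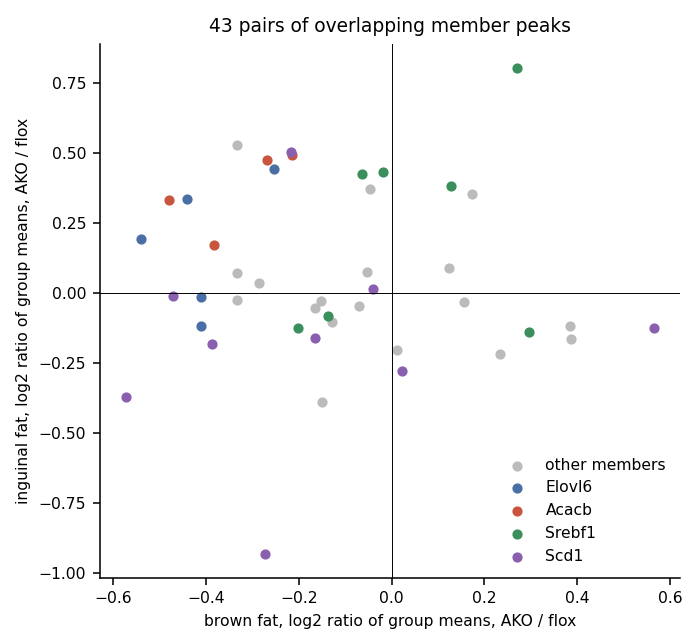
Log2 ratio of group means, AKO over flox, at the 43 pairs of overlapping peaks, brown fat on the horizontal axis and inguinal fat on the vertical axis. The 4 Acacb pairs lie at negative brown fat and positive inguinal values, and the lowest point is the Scd1 peak at the 3′ end, at -0.27 and -0.93.

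At this Scd1 3′ end the brown fat mice held 214, 108 and 244 in flox against 161, 118 and 190.0 in AKO, so that the genotypes overlapped there. The Acacb peak 10.4 kb past the start had lower means in AKO brown fat and higher values in AKO inguinal fat, with log2 ratios of -0.48 and 0.33, and the brown fat mice overlapped. The Srebf1 peak 4.3 to 4.7 kb upstream stood at -0.06 in brown fat and 0.43 in inguinal fat.

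Other genes of the pathway were taken from a list of 35 that covers acetyl-CoA and NADPH supply, the other elongases and desaturases, the elongation cycle and the regulators of SREBP and ChREBP. Peaks were assigned to 34 of the 35, 176 in brown fat and 110 in inguinal fat. Limma called 0 of them in either tissue. At an unadjusted p under 0.05, 9 were lower and 7 higher in brown fat, where 5.59% and 3.46% of all peaks were, and 5 lower and 4 higher in inguinal fat, where 7.42% and 7.61% were. The median log2 fold change was 0.01 in brown fat with PC1 and -0.04 in inguinal fat. With genotype alone the brown fat median was -0.11, with 113 of the 176 peaks below 0. AKO lay wholly below flox at 23 and above at 16 of the 176 brown fat peaks (13.1% and 9.09%, against 8.84% and 8.77% of all), and at 8 and 8 of the 110 inguinal peaks (7.27% each, against 10.3% and 10.6%).

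Within this list the brown fat peak with the smallest p lay 19.3 kb downstream of Insig1, which holds SREBP in the endoplasmic reticulum when sterols are plentiful. It held 73.2, 80.5 and 89.3 in flox against 43.3, 52.1 and 46.1 in AKO, with a log2 fold change of -0.96 ± 0.17 and an adjusted p of 0.417. An intron 1 peak of Hsd17b12, the ketoreductase of the elongation cycle, held 164, 154 and 146 in flox against 72.2, 94.6 and 89.2 in AKO, a log2 fold change of -0.92 ± 0.21. DESeq2 without PC1 gave this Hsd17b12 peak an adjusted p of 0.0763. In the other direction stood an intron 3 peak of the malic enzyme gene Me1, with 42.8, 31.8 and 40.1 in flox against 59.8, 48.3 and 73.9 in AKO, and a peak 6.3 kb upstream of the citrate carrier gene Slc25a1, with 204, 188 and 127 in flox against 265, 141 and 187 in AKO.

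In inguinal fat another intron 3 peak of Me1 held 36.4, 35.6 and 37.01 in flox against 20.7, 20.6 and 23.5 in AKO, with a log2 fold change of -0.73 ± 0.13 and the smallest adjusted p of the list, 0.149. A peak 190.2 kb past the start of Foxo1, a transcription factor that insulin keeps out of the nucleus, held 156, 129 and 144 in flox against 99.1, 98.2 and 87.7 in AKO, and was the 1 peak of the list that DESeq2 called, at 0.099. Of the inguinal peaks with an adjusted p, DESeq2 called 0.63% lower and 0.546% higher. Higher values stood at a peak 115.4 kb past the start of Insig2, which acts like Insig1, with 40.6, 28.9 and 31.8 in flox against 41.5, 68.5 and 65.2 in AKO, and 8.8 kb upstream of Slc25a1, with 132, 151 and 139 in flox against 179.8, 227 and 169 in AKO. edgeR gave the Slc25a1 peak an adjusted p of 0.064.

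Motif letters were counted in the central 300 bases of every peak on both strands, as a description. The PPAR and RXR direct repeat matched 3 of the 77 brown fat peaks (3.9%) and 3 of the 44 inguinal peaks (6.82%), against 0.878% and 0.705% of all peaks. The matches lay at Fasn and Srebf1 in both tissues, at Acly intron 1 in brown fat and at Acacb intron 1 in inguinal fat. The sterol regulatory element matched 7 (9.09%) and 6 (13.6%), against 4.72% and 4.86%. The E-box CACGTG, the core of the ChREBP element, matched 2 (2.6%) and 2 (4.55%), against 5.77% and 6.07%. CCAAT matched 29 (37.7%) and 19 (43.2%), against 31.8% and 30%, and the GC box GGGCGG 12 (15.6%) and 12 (27.3%), against 20.7% and 28.9%.

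The RefSeq promoter table (GRCm38.p6, 250 bases before to 50 after a start) held 10 promoters for 7 of the 10 genes. Scd1, Scd2 and Elovl3 were not matched. CCAAT matched 6 of the 10 and 37.4% of all 32851 promoters, with 3 matches in that of Fasn. The sterol regulatory element matched 1, a promoter of Mlxipl, and 4.36% of all, and the GC box matched 4 and 35.7%, with 4 matches in that of Acly.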

How the data were processed

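Nuclei of whole brown and inguinal fat were tagmented and sequenced, 3 samples per genotype and tissue. Per the labels and the study's methods, the authors aligned reads to mm10 (BWA 0.7.17-r1188), removed duplicates (Picard 2.8.14), kept autosomal high-quality reads, called broad peaks (MACS2 2.1.1.20160309), merged peaks found in 2 or more of the 3 samples of either genotype, counted reads per peak (bedtools 2.27.1) and normalised them (DESeq2 1.20.0). The deposited values are a signal, reads divided by a size factor, and are called normalized reads. Whole reads were recovered for 100% of values (largest distance from a whole number 3.34e-06). The deposited fold changes and p-values of the authors' own comparisons were not used.

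AKO and flox were compared peak by peak over each whole table with limma 3.58.1 (R 4.3.3) on log2(value + 1), with PC1 as covariate in brown fat as in the study, and Benjamini-Hochberg adjusted p under 0.1. DESeq2 1.42.0, edgeR 4.0.16 and limma with an intensity trend were alternatives, and their fits without PC1 were chosen after seeing the data. Scripts were tested on simulated data. Named peaks are, per gene and tissue, the one nearest the start site and that of smallest p, and for the other pathway genes the 2 of smallest p in each direction; peaks named for a lack of overlap or a motif were chosen after their values were seen. The genes and lists were chosen with earlier results of these data known. Positions are 1-based (GRCm38.p6, GENCODE vM21), and distances run from the start site to the peak's midpoint, for inguinal peaks from the start sites that the brown fat table implies. Depth was 6336670 to 27500738 reads in peaks in brown fat and 4066720 to 6691161 in inguinal fat.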

Additional observations from a re-analysis of the deposited data

How the results depend on the processing

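The 49 named peaks include those of Smarcd1 and of the other pathway genes. Over these peaks and all alternatives, 944 values kept their direction and side of the threshold, 23 passed it in addition, 0 lost it and 64 turned direction, in 19 peaks. Of the 23, the Smarcd1 intron 4 peak held 7, Foxo1 3, Slc25a1 2, Hsd17b12 1 and Insig2 1. The rest lay at inguinal peaks of Scd1, Acacb and Elovl6. The median log2 fold change of the 77 brown fat peaks was -0.18 without PC1 in limma and in limma with a trend, -0.16 in DESeq2 and -0.15 in edgeR, and that of the 176 peaks of other pathway genes -0.11, -0.11, -0.10 and -0.095. DESeq2 without PC1 called 1 peak lower in each set, where it called 0.517% of all brown fat peaks lower and 0.512% higher. In inguinal fat the numbers called lower and higher were 1 and 0 in DESeq2, 3 and 3 in edgeR and 3 and 3 in limma with a trend for the 44 peaks, and 1 and 0, 1 and 2, and 1 and 1 for the 110 peaks of other pathway genes. DESeq2 called 0.63% lower and 0.546% higher of the inguinal peaks with an adjusted p. Of all inguinal peaks, edgeR called 2.52% lower and 2.15% higher, and limma with a trend 2% and 1.64%. Over all alternatives, the brown fat peaks at an unadjusted p under 0.05 numbered 0 to 9 lower and 1 to 4 higher, and the inguinal ones 1 to 5 and 0 to 9.

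Without PC1, limma (with and without a trend), DESeq2 and edgeR turned Acacb at 20.6 kb to -0.15, -0.18 and -0.18, Acacb at its start site to -0.0015, -0.033 and -0.025, the Acly start site to -0.090, -0.065 and -0.058, Acaca at 2.7 kb to -0.18, -0.16 and -0.15, the Fasn start site to -0.15, -0.12 and -0.12, the Srebf1 start site to -0.24, -0.19 and -0.18, and Fasn at -33.0 kb to 0.24 in all 3. With PC1 of the 500 most variable peaks the Mlxipl start site turned to 0.014. Scaling by total reads turned Acaca at 2.7 kb to -0.015 and the Fasn start site to -0.00067, and cyclic loess turned them to -0.033 and -0.087. PC1 as an inguinal covariate, where it separates the genotypes, moved the medians to -0.13 and 0.11, and turned Acly at 3.5 kb to 2.42, Scd2 at 0.3 kb to 0.42, Elovl3 at 4.3 kb to -1.42, Elovl6 at 20.9 kb to 4.38, the Srebf1 and Mlxipl start sites to 1.02 and -0.56, and Slc25a1 at -8.8 kb to -0.93.

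Leaving out single samples turned 12 peaks. In brown fat these ranged from -0.046 to 0.49 (Acly start site), -0.13 to 0.25 (Acaca, 2.7 kb), -0.36 to 0.032 (Fasn, -33.0 kb), -0.19 to 0.30 (Fasn start site), -0.13 to 0.52 (Srebf1 start site), -0.31 to 0.068 (Mlxipl, 11.9 kb) and -0.068 to 0.10 (Mlxipl start site). In inguinal fat they ranged from -0.23 to 0.18 (Acaca, 2.8 kb), -0.023 to 0.21 (Elovl3, 4.3 kb), -0.070 to 0.11 (Elovl3 start site), -0.085 to 0.097 (Elovl6 start site) and -0.23 to 0.055 (Srebf1 start site). The medians over the 10 genes ranged from -0.04 to 0.10 in brown fat and from -0.04 to 0.03 in inguinal fat, and 0 peaks were called. The cause of these changes was not tested.

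Replicate numbers gave no clear pairing of the samples: deviations of same-numbered samples correlated at 0.49, 0.06 and -0.24 in brown fat and at -0.04, -0.05 and -0.06 in inguinal fat, and not every sample correlated best with its own number. The deviations are taken from means of 3 samples and so depend on each other, and this check cannot exclude a pairing. A replicate block moved the brown fat median to -0.091, turned Acaca at 2.7 kb to -0.094 and the start sites of Acacb and Srebf1 to -0.17 and -0.14, left the inguinal median at 0.003 and called 0 peaks. The limit of 10 kb from the start site gave medians of 0.05 in brown fat and -0.012 in inguinal fat, the latter on computed distances since that table gives none, and recomputed DESeq2 size factors gave the same values as those of the authors. With 3 samples a group, an exact test of a single peak cannot go below 0.1.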
